A study of Mus musculus with 31 samples.

Results

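The comparison concerned RGLS4326-treated polycystic kidneys that differed in their level of Lcn2, the gene of the secreted injury marker Ngal. Members were selected on a measured value: 13 of the 14 RGLS4326 kidneys were ranked by Lcn2 CPM (its counts scaled to a common total over all gene counts), the 6 highest were set against the 6 lowest, and mouse 12 in the middle was left out, which gave 12 of the 31 kidneys in the series. Mouse 9, whose library stood apart, was not ranked: it had 2.46 CPM of Lcn2 against 120 to 630 CPM in the other RGLS4326 kidneys. These sets are not groups of the study, since all of their mice received the same treatment.

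RNA-seq of whole kidney was done on 12 Pcy/CD1 mice given PBS, 14 Pcy/CD1 mice given RGLS4326 and 5 untreated wild-type CD1 mice. All mice were male and were killed at 30 weeks of age. RGLS4326 was injected subcutaneously at 25 mg kg-1, monthly, from 5 weeks of age. PBS was injected over the same period, weekly by the sample labels and monthly by the protocol text. Pcy is an inherited mutation that causes slowly growing cysts. By the labels, every RGLS4326 and PBS mouse carried it, whereas CD1 mice of the same background strain lacked it. No kidney was taken before treatment, so each mouse gave 1 value at 1 age.

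Lcn2 encodes a small siderophore-binding protein that injured distal tubule and collecting duct cells make and release into urine and blood. In polycystic kidneys, cyst growth compresses and replaces tubules, and cells lining cysts lose transporters of the mature nephron while they take up genes of the embryonic or injured epithelium. RGLS4326 is a short chemically modified oligonucleotide that pairs with the seed end of miR-17 and its relatives, which repress many mRNAs, among them Pkd1 and Pkd2. Each mouse of both sets had received it.

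The mature miRNAs that share this seed are shown because RGLS4326 was designed against it (RefSeq, GRCm38.p6, 5′ to 3′, with bases 2 to 8, the seed, in capitals). 
mmu-miR-17-5p: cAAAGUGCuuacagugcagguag
mmu-miR-20a-5p: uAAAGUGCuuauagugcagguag
mmu-miR-20b-5p: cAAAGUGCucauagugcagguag
mmu-miR-93-5p: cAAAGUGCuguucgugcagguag
mmu-miR-106a-5p: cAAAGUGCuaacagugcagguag
mmu-miR-106b-5p: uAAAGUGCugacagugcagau
mmu-miR-6383: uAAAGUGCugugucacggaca
All 7 carry the seed AAAGUGC, and mmu-miR-17-5p lies on the plus strand at chr14:115043684-115043706. Mature miRNAs were not measured in these poly(A) libraries. Mir17hg, described as the host transcript of the cluster that holds miR-17 and miR-20a, had a median of 5.36 CPM in the high-Lcn2 set and 4.82 CPM in the low-Lcn2 set, with overlapping ranges (log2 difference 0.12, standard error 0.11, adjusted p = 0.488, edgeR). Its entry in GRCm38.p6, chr14:115044390-115046728, begins past both miR-17 and miR-20a (chr14:115044183-115044205) and does not contain them.

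Lcn2 lies at chr2:32384637-32387739 of GRCm38.p6. In the high-Lcn2 set (mice 11, 5, 2, 1, 7 and 4) it read 414, 562 and 630 CPM as lowest, median and highest value, with a mean of 540 ± 93.2 CPM (SD, n = 6). In the low-Lcn2 set (mice 14, 3, 8, 6, 10 and 13) it read 120, 172 and 341 CPM, with a mean of 193 ± 78.7 CPM (SD, n = 6). The last kidney inside the high set was mouse 4 at 414 CPM, mouse 12 outside both sets read 385 CPM, and the first kidney of the low set was mouse 14 at 341 CPM. Mouse 14 therefore stood closer to mouse 12 than to the next kidney of its own set, mouse 3 at 207 CPM. Untreated CD1 kidneys read 0.772 to 9.52 CPM and PBS kidneys 206 to 1404 CPM, so each kidney of the low set was above the CD1 range. These Lcn2 values made the sets and were not tested.

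**Figure D1:**
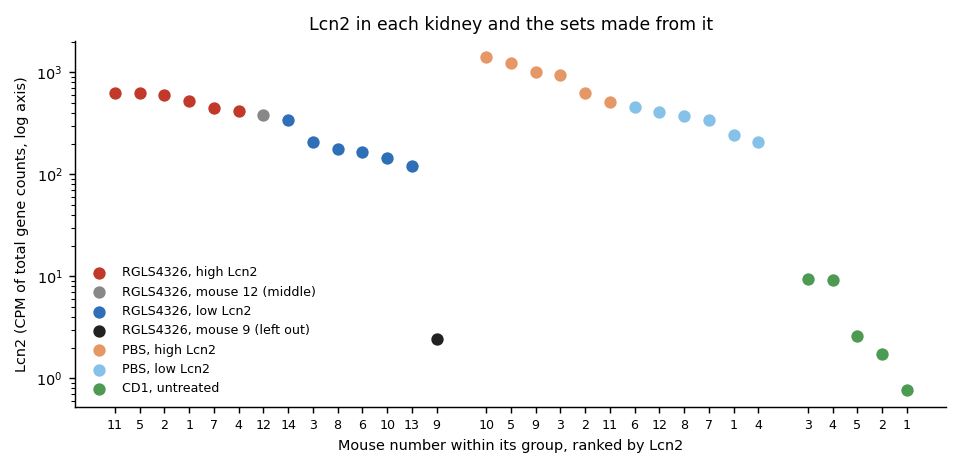
Lcn2 in CPM of total gene counts on a log axis for each of the 31 kidneys, ranked within the RGLS4326, PBS and CD1 groups and labelled by mouse number, with colours for the sets. The high set lies between 414 and 630 CPM, the low set between 120 and 341 CPM, and mouse 9 of the RGLS4326 group lies within the CD1 range.

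Total counts on genes ranged from 14892524 to 27459962 per kidney, and those of the high and low sets did not separate (exact two-sided permutation test, n = 6 and 6, p = 0.535). Library numbers in the deposited names restarted within a group, which gave 3 runs of numbers, called index series here. What they stand for is not given in the sources used here. The high set held 3, 2 and 1 kidneys of series 1, 2 and 3 and the low set 1, 2 and 3. Kidney markers were present throughout: the summed level of 27 proximal tubule genes was 46929.8 CPM or more in each of the 12 kidneys. Neutrophils carry much Lcn2 of their own, and of 11 neutrophil genes in the files, Ngp, Elane, Mpo and Camp were at 0 in 9 to 11 of the 12 kidneys, Retnlg in 5, Ltf and Mmp8 in 1 each, and S100a8, S100a9, Csf3r and Cxcr2 in 0. The highest of them was Csf3r, a receptor of granulocytes, at 3.46 to 9.39 CPM. The summed neutrophil level was 5.46 to 10.7 CPM in the high set and 4.90 to 8.44 CPM in the low set. The libraries of CD1 mice 3 and 4 were closer to each other than any other pair within the high set, the low set or the CD1 group, with a chi-square of 3.24 per gene against 19.7 to 29.2 for the other CD1 pairs. They differed by more than sampling noise, which gives about 1, but this measure cannot tell 2 mice from 2 libraries of 1 kidney. They were counted as 2 mice, as labelled. In bulk RNA, fewer cells of a type and less RNA per cell cannot be told apart.

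The question was which other genes differed between treated kidneys of high and low Lcn2. Of 14591 genes tested, 406 were higher and 135 lower in the high-Lcn2 set with an adjusted p below 0.05 and a log2 difference of more than 0.5 in size (the quasi-likelihood test of edgeR, with p-values adjusted by Benjamini and Hochberg's method, here and throughout), which is 3.71% in all, 2.78% higher and 0.925% lower. By adjusted p alone, 1131 genes (7.75%) were higher and 1198 (8.21%) lower. A call says that a gene's level went with Lcn2 over these 12 kidneys. In 118 of the 406 and 52 of the 135 called genes, no kidney of one set overlapped the other. Over all genes tested, the sets did not overlap in 310 (2.12%) with the high set above and in 554 (3.80%) with it below. Without scaling beyond total counts, 836 of 895 called genes were higher (93.4% against 75.05%), as the median of all genes moved to 0.12 from 0.01. The count rested in part on single kidneys: it was 360 without mouse 2, 338 without mouse 8, 337 without mouse 13 and 844 without mouse 14, and 336, 326, 325 and 524 of those genes were among the 541. With mouse 9 in the ranking, 7 kidneys against 7, 748 genes were called.

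**Figure D2:**
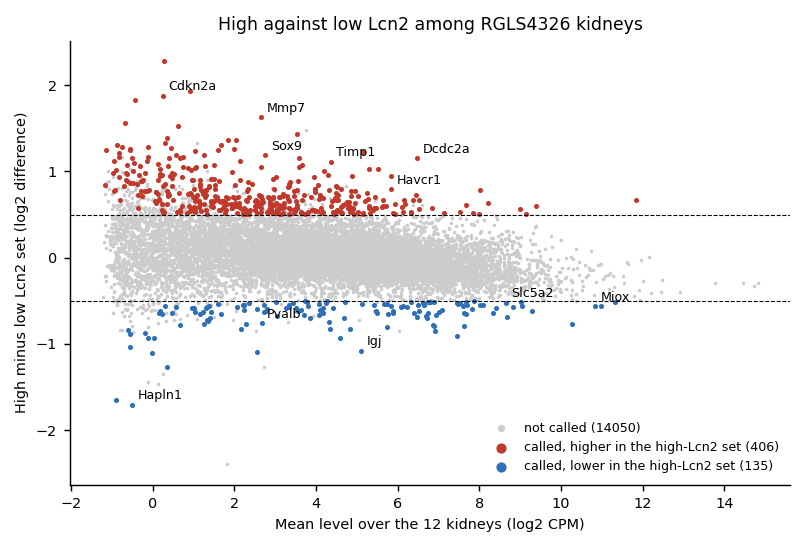
Log2 difference between the high and low Lcn2 sets of RGLS4326 kidneys against the mean level over the 12 kidneys in log2 CPM, 1 point per gene, with the 0.5 limits dashed. The 406 genes called higher (red) lie mostly at low to medium levels, while the 135 called lower (blue) reach up to highly expressed genes such as Miox.

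Among called genes whose mean reached 5 CPM, with predicted gene models left out, the rise with the smallest p was Dcdc2a (chr13:25055273-25210706), which encodes a microtubule-binding protein of the cilium. Its TMM-scaled level, used for all genes other than Lcn2, was 98.7, 124 and 150.0 CPM as lowest, median and highest value in the high set and 38.5, 53.5 and 75.3 CPM in the low set. The sets did not overlap, and CD1 kidneys, at 13.4 to 18.9 CPM, lay below both. The gene was 2.23-fold higher in the high set (log2 difference 1.16, standard error 0.14, adjusted p = 0.00112), and the difference was 0.67, 1.19 and 1.29 in index series 1, 2 and 3 on log2(CPM + 1) values.

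The next 5 rises by p also had sets that did not overlap. Cdh3, the cell adhesion molecule P-cadherin, read 33.7 to 45.2 CPM in the high set and 22.4 to 29.2 CPM in the low set (log2 difference 0.72, adjusted p = 0.00122). Itgb4, an integrin that anchors epithelium to basement membrane, read 26.4 to 33.7 CPM against 17.3 to 23.2 CPM (0.60, adjusted p = 0.00122). Both were also higher in PBS than in CD1 kidneys, by log2 differences of 2.42 and 1.81. Scn8a, a voltage-gated sodium channel subunit, read 6.11 to 11.3 CPM against 3.03 to 4.60 CPM (1.05, adjusted p = 0.00170). Golm1, a Golgi membrane protein, and Tmem150c, a transmembrane protein, differed by 0.68 and 0.52. All 6 genes kept an adjusted p under 0.05 when any 1 of the 12 kidneys was left out, while Tmem150c fell under the size limit without mouse 2, 6 or 11.

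Among the 6 falls with the smallest p under the same limits, Slc5a2 and Miox belong to the proximal tubule. Slc5a2, the glucose transporter Sglt2 of the early proximal tubule (chr7:128265683-128272430), read 294, 318 and 383 CPM in the high set and 444, 473 and 510 CPM in the low set, so the sets did not overlap (log2 difference −0.53, standard error 0.06, adjusted p = 0.00112). Miox, the oxygenase that degrades myo-inositol in proximal tubule, read 1343, 1473 and 1629 CPM against 1931, 2196 and 2465 CPM (−0.57, standard error 0.07, adjusted p = 0.00112). Both genes were lower in every kidney of the high set than in any kidney of the low set, and in CD1 kidneys Miox stood at 4078 CPM or more. Within index series, the difference was −0.51, −0.48 and −0.67 for Slc5a2 and −0.49, −0.63 and −0.57 for Miox. Without mouse 11, Slc5a2 was just under the size limit (−0.496).

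Hpd, an enzyme of tyrosine breakdown, read 36.5 to 51.6 CPM in the high set and 60.7 to 70.8 CPM in the low set (−0.66, adjusted p = 0.00112). Lpar3, a receptor for lysophosphatidic acid, and Dnajc12, a co-chaperone, differed by −0.64 and −0.52. With index series as a covariate, Dnajc12 and Dnase1 were under the size limit (−0.496 and −0.492), as was Dnajc12 without mouse 4 or 13. The sets did not overlap for Hpd, Lpar3 or Dnajc12. Dnase1, the secreted nuclease, read 1568 to 1777 CPM in the high set and 1999 to 2740 CPM in the low set (−0.56, adjusted p = 0.00170). It was the exception among the 12 leading genes, as it was lower with high Lcn2 but higher in PBS than in CD1 kidneys (log2 difference 0.73, adjusted p = 0.0161).

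**Figure D3:**
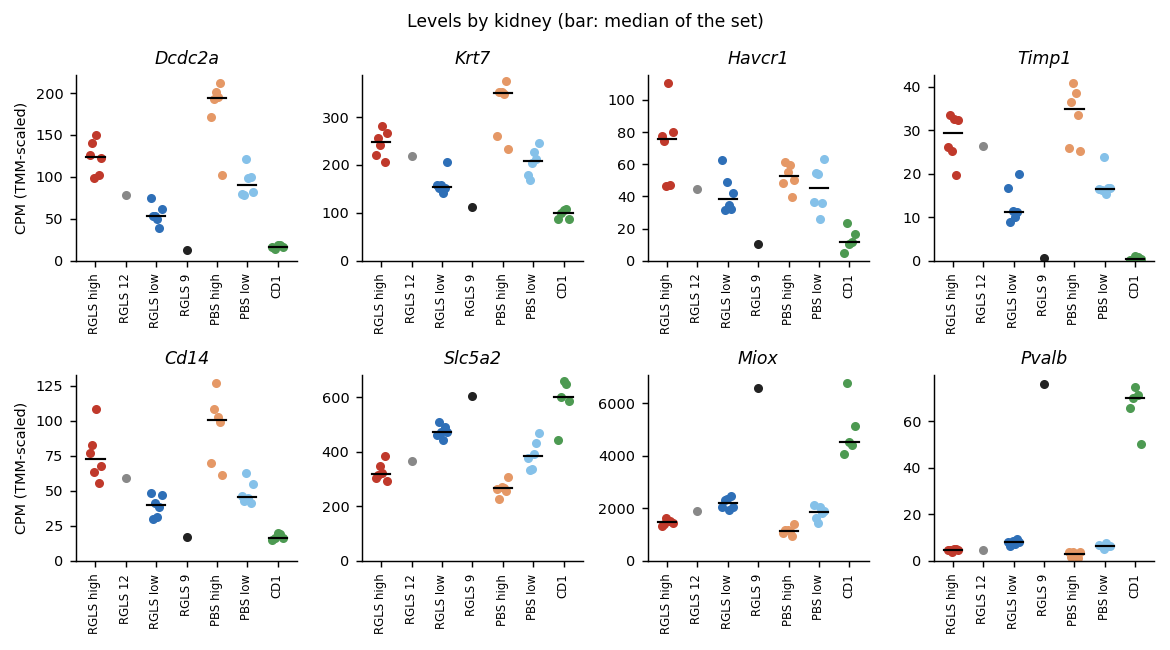
TMM-scaled CPM of 8 genes in each kidney, by set, with the set's median as a bar and all axes from 0. Dcdc2a, Cd14, Slc5a2, Miox and Pvalb do not overlap between the RGLS4326 high and low sets, Havcr1 and Timp1 do, and mouse 9 lies at or near the CD1 values.

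Genes of the injured tubular epithelium were higher in the high-Lcn2 set: of 20 members, 14 were called higher and 0 lower, against 2.78% and 0.925% of all genes tested. Each of the 20 log2 differences was above 0, with a median of 0.61 beside 0.01 for all genes. The count of called members was 11 to 16 when 1 kidney was left out, and 11 with index series as a covariate. Markers of urothelium, the lining of the renal pelvis, also had differences above 0 in 6 of 6 genes (median 0.54), with 0 called and a summed level of 35.9 to 127 CPM in the high set and 42.9 to 70.8 CPM in the low set, and their part in the result was not tested. Krt7, a keratin of simple epithelium and collecting duct, read 207, 248 and 282 CPM in the high set and 142, 155 and 207 CPM in the low set (0.62, standard error 0.09, adjusted p = 0.00202). The highest low-set value, in mouse 14, fell just short of the lowest high-set value.

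Havcr1, which encodes the injury marker Kim-1 of proximal tubule, read 46.3, 76.0 and 111 CPM in the high set and 31.5, 38.3 and 62.8 CPM in the low set. Its sets overlapped, and the log2 difference was 0.79 (standard error 0.22, adjusted p = 0.0258). This call was weaker than those above: it held in 7 of the 12 fits without 1 kidney, had an adjusted p of 0.0638 with index series as a covariate, and the difference within index series 1 was 0.04. Among members of the list named after their values were seen, Sox9, a transcription factor of regenerating tubule, differed by 1.19 (adjusted p = 0.00961), Krt19 by 0.81 and Krt18 by 0.73. Spp1, the matrix protein osteopontin, read 3588 to 5389.61 CPM in the high set and 2257 to 3849.6 CPM in the low set (0.67, adjusted p = 0.00649). Vim, Krt20 and Cdh6 did not pass.

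Of 23 acute phase and NF-kB genes tested, 5 were called higher and 0 lower, against 2.78% and 0.925% of all genes, with a median of 0.42, and 10 were called higher without scaling beyond total counts. Nfkbiz, an inducible IkB-family regulator that is needed for Lcn2 induction in several cell types, read 40.1 to 43.7 CPM in the high set and 21.3 to 35.1 CPM in the low set (0.52, adjusted p = 0.0049), and was under the size limit without mouse 6 or 10. C3, the central complement component, read 310, 367 and 408 CPM against 166, 231 and 311 CPM (0.63, standard error 0.14, adjusted p = 0.0103). The sets met at the edge for C3 but not for Nfkbiz. The other 3 calls, named after their values were seen, were Socs3 (0.77), Relb (0.55) and Ccl20 (0.89). Saa1, a classic acute phase protein, had values of 1.10 to 9.60 CPM against 0.549 to 1.92 CPM and did not pass (adjusted p = 0.102). Of the list, 2 members were called without mouse 6 and 3 without mouse 10. The summed level of the list was 1614 to 1966.5 CPM in the high set and 1447 to 2079 CPM in the low set, with overlap.

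Of 13 genes of lipocalin and iron handling tested, 1 was called, against 3.71% of all genes, so that the count lay near the background. Cp, the copper ferroxidase ceruloplasmin that also behaves as an acute phase protein, read 122 to 152 CPM in the high set and 73.0 to 114 CPM in the low set (0.58, adjusted p = 0.00525). With index series as a covariate its difference was 0.488, under the size limit, and no gene of the list was called. Bdh2, which takes part in the synthesis of the siderophore that Lcn2 binds, read 183, 201 and 217 CPM against 236, 265 and 284 CPM, with no overlap (−0.37, adjusted p = 0.00223, under the size limit). Slc22a17, described as an Lcn2 receptor, had a log2 difference of 0.04. Ireb2 passed on p alone (−0.26).

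Matrix genes were called in part. Of 15 proteases and inhibitors, 3 were higher and 0 lower, against 2.78% and 0.925% of all genes (median 0.31). Timp1, an inhibitor of matrix metalloproteinases, read 19.6, 29.3 and 33.5 CPM in the high set and 8.84, 11.3 and 19.9 CPM in the low set, with CD1 kidneys at 0.0590 to 1.18 CPM (1.11, standard error 0.19, adjusted p = 0.00322). Timp3, an inhibitor bound to basement membrane, went the other way and did not overlap between sets, at 2176 to 2294 CPM against 2504 to 3021 CPM (−0.34, adjusted p = 0.00222, under the size limit). The other calls were Mmp14 (0.60) and Mmp7, the epithelial metalloproteinase matrilysin, at 7.0 to 12.1 CPM against 1.37 to 6.47 CPM (1.63, adjusted p = 0.00425).

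Of 20 fibroblast and matrix genes, 4 were higher and 0 lower (median 0.32), against 2.78% and 0.925% of all genes, with 2 called without mouse 2 or mouse 6, 1 without mouse 8, 7 without mouse 3 and 7 without scaling beyond total counts. Postn, the matricellular protein periostin, read 8.05 to 11.3 CPM in the high set and 4.68 to 7.86 CPM in the low set (0.70, adjusted p = 0.00441), and Thy1, a surface glycoprotein of fibroblasts and T cells, differed by 0.78 (adjusted p = 0.0222), a call lost without mouse 8. Tnc and Tagln were the other calls. Col1a1, the main fibrillar collagen chain, read 124 to 216 CPM against 70.6 to 140 CPM and did not pass (0.46, adjusted p = 0.0590).

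Of 15 macrophage genes, 2 were called higher, against 2.78% of all genes, and each of the 15 log2 differences was above 0 (median 0.43). The count was 1 in 10 of the 12 fits without 1 kidney, 5 without mouse 14 and 7 without scaling beyond total counts. Cd14, the lipopolysaccharide co-receptor, read 55.8, 72.5 and 108 CPM in the high set and 30.0, 39.7 and 48.7 CPM in the low set (0.95, standard error 0.16, adjusted p = 0.00304). Tyrobp, an adaptor of myeloid receptors, differed by 0.53 (adjusted p = 0.0477), and that call held in 1 of the 12 fits without 1 kidney. Csf1r, the defining receptor of macrophages, had a log2 difference of 0.07. The summed level of the macrophage genes was 611 to 1029 CPM in the high set and 380 to 674 CPM in the low set. Their part in the other differences was not tested.

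Of 18 complement genes, 2 were higher, against 2.78% of all genes, Cfi (0.78, adjusted p = 0.00659) and C1qb (0.67), which encode the protease factor I and a chain of C1q, with 6 called without mouse 14, 1 without mouse 2 or mouse 8, and 7 without scaling beyond total counts. C4b passed on p alone (0.49, adjusted p = 0.0110). Of 15 lymphocyte genes 0 were called higher and 1 lower, against 2.78% and 0.925% of all genes, counts near the background. The call was the plasma cell gene Igj, which encodes the joining chain of IgA and IgM. Igj read 12.4, 21.3 and 32.8 CPM in the high set and 25.3, 48.0 and 64.9 CPM in the low set, with overlap (−1.08, standard error 0.27, adjusted p = 0.0172), and the call was lost on p with all 31 kidneys in the fit. Lck, a T cell kinase, did not pass (0.32, adjusted p = 0.214). Of the 2 neutrophil genes with enough counts, neither passed: S100a9 had a difference of 0.08 and Csf3r of 0.33.

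Of 20 cell cycle genes, 2 were higher, against 2.78% of all genes: Cdk1, the mitotic kinase (0.55), and Cdkn1a, the inhibitor p21 (0.61, adjusted p = 0.0158). All 20 log2 differences were above 0 (median 0.35), and 4 genes were called without mouse 14 and 1 without mouse 2 or mouse 10, with index series as a covariate or with all 31 kidneys in the fit. Mki67, a proliferation marker, read 13.99 to 18.4 CPM in the high set and 11.4 to 14.5 CPM in the low set and passed on p alone (0.37, adjusted p = 0.0103).

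Proximal tubule genes were lower in the high-Lcn2 set. Of 27 members, 8 were called lower and 0 higher, against 0.925% and 2.78% of all genes, and 25 were lower by adjusted p alone, against 8.21%. The median log2 difference was −0.42, and no member was above 0. The count of called members was 6 to 12 when 1 kidney was left out and 5 without scaling beyond total counts. The calls besides Slc5a2 and Miox, named after their values were seen, included the neutral amino acid transporter Slc6a19, at 68.4 to 122 CPM in the high set and 127 to 191 CPM in the low set (−0.78, adjusted p = 0.00363), the lactate transporter Slc5a12 (−0.79), the phosphate transporter Slc34a3 (−0.66), the gluconeogenic enzyme Pck1 (−0.77) and the creatine synthesis enzyme Gatm (−0.69). Hnf4a, a transcription factor of proximal tubule identity, read 547 to 722 CPM against 808 to 933 CPM (−0.42, adjusted p = 0.00271, under the size limit). The summed level of the list was 46929.8, 54828 and 55737 CPM in the high set and 63311, 68453 and 78261 CPM in the low set, without overlap, and 89251 CPM or more in CD1 kidneys.

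Fatty acid oxidation, the main energy source of proximal tubule, had 1 of 19 genes called lower and 11 lower by adjusted p alone, against 0.925% and 8.21% of all genes (median −0.23). The call was Cyp4a12a, a fatty acid hydroxylase, at 324 to 499 CPM in the high set and 545 to 674 CPM in the low set (−0.51, adjusted p = 0.0057), a gene whose near-identical copies can share its reads. The call was lost with index series as a covariate, without scaling beyond total counts, and without mouse 2, 4, 8, 10 or 13. Slc27a2, a fatty acid transporter and acyl-CoA synthetase, read 2481 to 3157 CPM against 3775 to 4429 CPM, again without overlap (−0.44, adjusted p = 0.00202, under the size limit).

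Among other nephron segments, the distal convoluted tubule had 1 gene called higher and 1 lower of 7, against 2.78% and 0.925% of all genes. Pvalb, the calcium buffer parvalbumin, read 3.82 to 5.22 CPM in the high set and 6.34 to 9.55 CPM in the low set, both far under the 50.1 to 74.6 CPM of CD1 kidneys (−0.76, standard error 0.11, adjusted p = 0.00193). Trpv5, the apical calcium channel of the same segment, was higher, at 30.7 to 46.1 CPM against 18.4 to 29.0 CPM (0.58, adjusted p = 0.00989), and was under the size limit without mouse 5. Slc12a3, the sodium chloride cotransporter that defines the segment, had a log2 difference of −0.03.

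In principal cells of the collecting duct, 5 of 8 genes were higher by adjusted p alone, against 7.75% of all genes, and 0 passed the size limit. Of the 8, 2 had log2 differences below 0, the lowest at −0.36. The summed level of the list was 1743 to 2175 CPM in the high set and 1533 to 1855 CPM in the low set, with overlap. Scnn1b and Scnn1g, subunits of the epithelial sodium channel, read 105 to 128 CPM against 78.6 to 100.5 CPM and 94.0 to 117 CPM against 77.9 to 91.7 CPM (0.36 and 0.29, adjusted p = 0.00271 and 0.00886). Neither overlapped between the sets. In the thick ascending limb, 0 of 11 genes were called, near the 3.71% of all genes: Egf, the growth factor precursor, read 667 to 1056 CPM against 879 to 1466 CPM (−0.40, adjusted p = 0.0376), Cldn16, a tight junction protein of magnesium transport, differed by 0.33 (adjusted p = 0.0203), and Umod, which encodes uromodulin, by 0.01. Egf kept an adjusted p under 0.05 in 4 of the 12 fits without 1 kidney.

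No gene of intercalated cells (8), podocytes (10) or blood endothelium (10) passed both limits, near the 3.71% of all genes, but 1 podocyte gene was called higher without mouse 3, 11 or 14, with mouse 9 included and without scaling beyond total counts, 1 podocyte gene in each direction for the 4 highest against the 4 lowest kidneys, and 1 endothelial gene lower without mouse 2. Slc4a1, the anion exchanger of acid-secreting cells, and Foxi1, a transcription factor of intercalated cells, had adjusted p-values of 0.0512 and 0.100, and with index series as a covariate Slc4a1 passed on p alone (−0.47, adjusted p = 0.0189). Clic5, a chloride channel protein of the podocyte foot process, was lower on p alone (−0.42, adjusted p = 0.0114), and Wt1, a podocyte transcription factor, did not pass (0.47, adjusted p = 0.0659). The 10 endothelial log2 differences were all below 0 (median −0.19, and −0.09 without scaling beyond total counts). Plvap (−0.45) and Tek (−0.41), a diaphragm protein and a receptor of endothelium, had the smallest p-values there and did not pass.

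**Figure D4:**
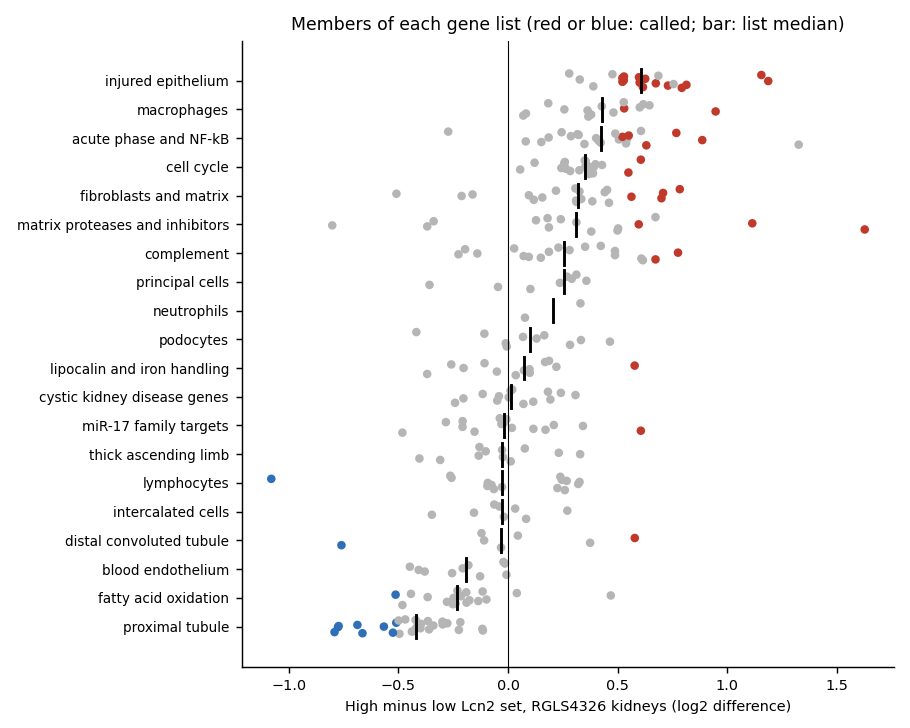
Log2 difference between the high and low Lcn2 sets of RGLS4326 kidneys for each tested member of 20 gene lists, 1 point per gene, red or blue where called and grey where not, with the list's median as a bar. Injured epithelium lies highest with a median of 0.61 and proximal tubule lowest with −0.42.

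Of 14 genes of cystic kidney disease, 0 were called by edgeR, and 1 was higher and 0 lower by adjusted p alone, near the 7.75% and 8.21% of all genes (median 0.02). Dzip1l, a gene of the ciliary transition zone, was the one that passed on p, at a difference of 0.24 (adjusted p = 0.0174). Pkd2, which encodes polycystin-2, read 248, 267 and 315 CPM in the high set and 275, 313 and 393 CPM in the low set, as lowest, median and highest kidney. Its sets overlapped, and the difference did not pass (−0.24, standard error 0.08, adjusted p = 0.0568), whereas with index series as a covariate it passed on p alone (−0.28, adjusted p = 0.0463). Pkd1, which encodes polycystin-1, did not pass either (0.07, adjusted p = 0.416).

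Described direct targets of the miR-17 family showed no shared direction. Of 16 genes, 1 was called higher and 0 lower, against 2.78% and 0.925% of all genes, 2 passed on p alone in each direction, against 7.75% and 8.21%, and the median log2 difference was −0.02; 1 gene was called lower without mouse 3, 4, 11 or 14. The call was Cdkn1a, given above. Stat3, a transcription factor of cytokine signalling, read 153 to 200 CPM in the high set and 122 to 157 CPM in the low set (0.34, adjusted p = 0.00740). Ppara, the nuclear receptor that drives fatty acid oxidation, read 61.1, 72.5 and 85.6 CPM against 77.6, 110 and 116 CPM (−0.48, adjusted p = 0.0102). Stat3 and Ppara were both under the size limit.

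The 2 RGLS4326 kidneys outside the sets were compared with them at the called genes. Mouse 12, in the middle of the ranking, lay between the medians of the sets for 263 of 406 genes called higher and 92 of 135 called lower. It was past the high-set median for 122 and 21 of them. Mouse 9 lay beyond every low-set kidney, on the side away from the high set, for 320 of the 406 (78.8%) and 87 of the 135 genes (64.4%). It did so for 45.4% of all tested genes with a difference above 0 and 41.2% of those below 0, so the library stood apart at many genes that were not called. At Slc5a2, for example, it read 604 CPM, within the 445 to 661 CPM of CD1 kidneys. Pvalb read 76.2 CPM in mouse 9, against 50.1 to 74.6 CPM in CD1 kidneys and 3.82 to 9.55 CPM in the sets. Mcm6 read 33.0 CPM in mouse 9, against 29.7 to 34.1 CPM in CD1 kidneys and 3.99 to 10.3 CPM in the sets. The genotype of mouse 9 was taken from its label and was not tested.

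To see whether the same genes went with Lcn2 without RGLS4326, the 12 PBS kidneys were split in the same way, 6 against 6, with Lcn2 at 518 to 1404 CPM and 206 to 455 CPM. In that split 1030 genes (6.97% of 14780) were higher and 528 (3.57%) lower. Of the 541 genes called in RGLS4326 kidneys, 536 were tested in PBS kidneys and 532 had the same sign there (99.3%), against 82.8% of all genes tested in both. Of the 406 called higher, 317 were also called higher in PBS kidneys, and of the 135 called lower, 89 were also called lower. These 406 shared genes (a sum that equals the count of rises by coincidence) are 75.05% of the RGLS4326 calls and 26.1% of the 1558 PBS calls. The 2 splits share no kidney.

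Several leading genes had near-equal differences in the 2 splits. Dcdc2a differed by 1.16 in RGLS4326 and 0.95 in PBS kidneys, Cd14 by 0.95 and 0.96, Krt7 by 0.62 and 0.64, and Slc5a2 by −0.53 and −0.55. Others had unequal values: Scn8a differed by 1.05 and 0.22, Havcr1 by 0.79 and 0.22, and Igj by −1.08 and 0.05. None of these gaps passed a test of the difference itself. Over 15021 genes, 0 had a high-low difference that differed between RGLS4326 and PBS kidneys at the same limits (edgeR interaction term, 0% called), with 860 genes at an unadjusted p under 0.05, and DESeq2 also gave 0, with 827. For the called genes the standard error of that difference had a median of 0.24, and a p that missed the limits does not show that the splits had equal differences.

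**Figure D5:**
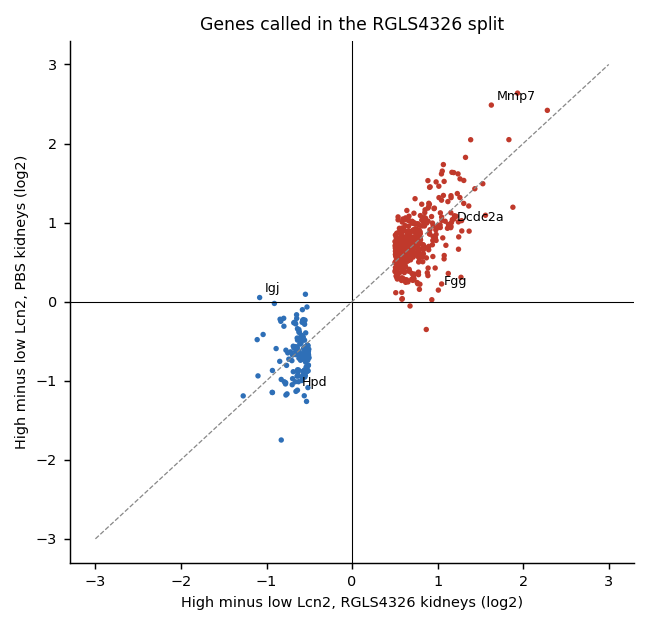
High minus low Lcn2 difference (log2) in PBS kidneys against that in RGLS4326 kidneys for the 541 genes called in the RGLS4326 split (those tested in both), red where called higher and blue where called lower, with the line of equal difference dashed. Of 536 genes, 532 lie in the quadrants of the same sign, while Igj lies just over the zero line of the PBS axis.

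The called genes were also set beside the difference between diseased and healthy kidneys, which shares no kidney with the RGLS4326 split. In PBS against CD1 kidneys, 3756 of 14998 genes (25.0%) were higher and 2508 (16.7%) lower, 6264 in all, with 6269 called without CD1 mouse 3 and 6252 without CD1 mouse 4. Of the 541 genes, 539 were tested there, 527 had the same sign (97.8%, against 81.5% of all genes), and 383 of the 406 and 118 of the 135 were called in the same direction. Among lists, 20 of 20 injured epithelium genes were called higher and 24 of 27 proximal tubule genes lower in PBS than in CD1 kidneys. A few called genes had the opposite sign. Mcm6, a subunit of the replicative helicase named after its values were seen, read 8.07 to 10.3 CPM in the high set and 3.99 to 7.63 CPM in the low set (0.61, adjusted p = 0.00998), and 29.7 to 34.1 CPM in CD1 kidneys. With Mcm6 and Dnase1, 6 called genes were called the opposite way in PBS against CD1 kidneys.

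Promoters were read from RefSeq (GRCm38.p6, 250 bases before to 50 after the start site) for 10874 of the genes tested, 279 of them called higher and 99 called lower. Of 6 motifs searched on both strands, the AP-1 motif TGANTCA was present in 11.8% of promoters of genes called higher, 5.05% of those called lower and 6.57% of all. The TEAD motif GGAATG was present in 18.3%, 10.1% and 14.8%, the C/EBP motif TTGCNNAA in 10.8%, 11.1% and 10.4%, and the STAT motif TTCNNNGAA in 10.4%, 6.06% and 8.52%. The ETS motif CCGGAAGT, common in promoters of widely expressed genes, was present in 2.51%, 0% and 8.19%, and the HNF4 motif CAAAGTCCA in 0.358%, 0% and 0.561%. These shares are descriptions of short letter matches.

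The stretches below show the promoter of Lcn2 with its C/EBP match and the promoters of the 4 called list members that held an AP-1 match before the start site, each 5′ to 3′ on the gene's strand with the match in capitals. 
Lcn2, minus strand, chr2:32387908-32387989: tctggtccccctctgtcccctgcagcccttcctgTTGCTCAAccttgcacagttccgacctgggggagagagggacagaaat
Mmp7, plus strand, chr9:7691987-7692073: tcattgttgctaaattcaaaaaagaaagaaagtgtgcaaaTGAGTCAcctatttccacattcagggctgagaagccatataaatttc
Anxa2, plus strand, chr9:69453548-69453634: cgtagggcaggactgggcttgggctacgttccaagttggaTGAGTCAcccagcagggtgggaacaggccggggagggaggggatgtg
Cp, plus strand, chr3:19956837-19956923: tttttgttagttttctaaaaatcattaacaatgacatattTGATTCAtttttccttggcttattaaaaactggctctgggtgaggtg
Cldn4, minus strand, chr5:134947128-134947184: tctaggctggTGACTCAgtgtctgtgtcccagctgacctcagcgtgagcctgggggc
Among these 4 genes, log2 differences were 1.63 for Mmp7, 0.52 for the membrane-binding protein Anxa2 (under the size limit without mouse 2, 8 or 13), 0.58 for Cp and 0.63 for the tight junction protein Cldn4.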

How the data were processed

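The authors deposited raw counts per gene and mouse for 23509 genes. Per the labels and the study's methods, stranded poly(A) libraries were sequenced as paired reads of 75 bp, trimmed with TrimGalore, mapped with STAR to GRCm38 and counted with HTSeq 0.6.1 over uniquely mapped reads; the strand setting of the counting was not given in the sources used here.

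Genes passing edgeR's filterByExpr were scaled by TMM and fitted with edgeR 4.0.16 in R 4.3.3 (quasi-likelihood test, Benjamini-Hochberg adjustment) for each comparison on its own kidneys; the difference between splits was an interaction term over both. A gene was called at an adjusted p below 0.05 with a log2 difference of more than 0.5 in size. Standard errors are approximate. The members, the 27 lists and the tests were chosen with earlier results of these data known, and 1 trait of the same kidneys, Lcn2, made the sets. Genes named are the 6 rises and 6 falls with the smallest p at a mean of at least 5 CPM (predicted gene models left out), the 2 genes of each biological list with the smallest p, and Havcr1, Pkd1 and Pkd2; others were named after their values were seen. Some genes are not reported here and were left out of the lists. Of the list members, 3 were matched by an older symbol. Each sample was taken as 1 mouse, as labelled.

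On simulated counts of the RGLS4326 split (14591 genes), 89 of 100 genes changed by 1 and 100 of 100 changed by 2 on the log2 scale were called, and 4 unchanged genes. Alternatives were DESeq2 1.42.0, other scalings, filters and limits, index series as a covariate, and leaving out kidneys.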

Additional observations from a re-analysis of the deposited data

Results flagged for a closer look

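Among 66 named genes, 198 sets of 5 or 6 kidneys were screened for 1 kidney far from the rest on log2(CPM + 1) values, and 13 met the limit of Dixon's test, which chance meets in about 1 set in 20. Among kidneys of the high set, mouse 2 stood apart at Tyrobp (48.4 CPM, the others 27.2 to 33.2), Slc27a2 (2481 CPM, the others 3001 to 3157), Foxi1 (29.0 CPM, the others 38.7 to 45.4) and Dnah5 (1.62 CPM, the others 2.53 to 2.91). In the same set mouse 7 stood apart at Dnase1 (1777 CPM, the others 1568 to 1599) and mouse 4 at Pvalb (3.82 CPM, the others 4.71 to 5.22).

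Among kidneys of the low set, mouse 14, which had the highest Lcn2 of the set, stood apart on the side of the high set at Krt7 (207 CPM, the others 142 to 158), Igfbp2 (42.1 CPM, the others 14.8 to 20.3), Cldn4 (69.5 CPM, the others 40.8 to 45.8) and Clic5 (95.2 CPM, the others 123 to 140). Mouse 6 stood apart at Daw1 (0.160 CPM, the others 0.404 to 0.556). Among CD1 kidneys, mouse 5 stood apart at Fgg (11.4 CPM, the others 3.21 to 4.196) and Hapln1 (2.70 CPM, the others 5.56 to 6.53).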

How the results depend on the processing

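For the RGLS4326 split, 541 genes were called, and 895 without scaling beyond total counts, 1138 for the 4 highest against the 4 lowest, 2329 by adjusted p alone and 3980 by adjusted p with Lcn2 as a continuous term; leaving out 1 kidney gave 337 to 844. The PBS split gave 5290 by adjusted p alone, 6620 with Lcn2 as a continuous term, and 1304 to 2017 without 1 kidney. PBS against CD1 gave 10982 by adjusted p alone and 6252 to 6349 without 1 CD1 kidney. Genes called the same way in both splits numbered 1922, and in the RGLS4326 split and PBS against CD1 2170, by adjusted p alone. DESeq2, DESeq2's size factors, both filters, the index series covariate (416 calls) and all 31 kidneys in the fit kept each of these counts over all genes within 1.5 times, where they were run. The interaction stayed at 0 called in each of its alternatives. Among named genes, the sign reversed for S100a9 alone, without mouse 1 (−0.09), 7 (−0.15) or 13 (−0.04), and its range without 1 kidney was −0.15 to 0.213; it did not pass. List counts under other fits were added after seeing the data, and several moved by more than that. Macrophage calls went from 2 to 5 under DESeq2 and with all 31 kidneys, complement from 2 to 4 with the covariate and with all 31 kidneys, acute phase from 5 to 3 with all 31 kidneys, and cell cycle from 2 to 1 with the covariate and with all 31 kidneys. One liver gene was added without scaling, with all 31 kidneys and without mouse 4 or 7, and 1 urothelium gene under DESeq2 and without scaling. Without mouse 14, 1 immediate early and 1 urothelium gene were called higher and 1 protease or inhibitor and 1 adipose gene lower. Without mouse 11, 3 urothelium genes were called higher, and without mouse 3, 1 red cell gene lower. Fatty acid oxidation had 2 calls without mouse 3, 11 or 14. For the 4 highest against the 4 lowest kidneys, calls went from 8 to 16 in proximal tubule, 4 to 8 in fibroblasts, 5 to 8 in acute phase genes, 3 to 5 in proteases and inhibitors, 2 to 4 in macrophages, complement and cell cycle, 1 to 4 in fatty acid oxidation and 1 to 2 in liver. There 2 genes of the thick ascending limb and 1 each of proteases and inhibitors, principal cells, miR-17 targets and red cells were also called lower. With mouse 9 included, proximal tubule had 13 calls, cell cycle 4, macrophages 1, fatty acid oxidation 2 and liver 2 higher and 1 lower, and 1 gene each of proteases and inhibitors, miR-17 targets and red cells was called lower.

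A replicate block between PBS and CD1 kidneys gave 6224 calls against 6264. Same-numbered mice are different animals, and their deviations correlated at −0.01 to 0.29, so the numbers do not pair them. No paired analysis was possible within the splits because kidneys of 1 group share no number. Depth limits genes of few counts most. With 6 kidneys a set, a difference that missed the limits is not shown to be absent. The total count did not separate the sets (mean difference 1196103 counts).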

Other observations

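The following genes were chosen after their values were seen and belong to no list above, except Fgg of the liver list. Cdkn2a, which encodes the cell cycle inhibitors p16 and p19Arf, was 3.68-fold higher in the high-Lcn2 set, at 1.39 to 2.64 CPM against 0.226 to 1.01 CPM, without overlap (log2 difference 1.88, standard error 0.30, adjusted p = 0.00271), and by 1.19 in the PBS split. Igfbp2, a secreted binding protein of insulin-like growth factors, read 33.9 to 72.3 CPM against 14.8 to 42.1 CPM (1.23, adjusted p = 0.0074). Also called higher were 3 genes with roles in motile cilia, Daw1 by 1.24, Dnah5 by 0.71 and Ccdc114 by 0.55 (adjusted p = 0.0101, 0.0257 and 0.0222), picked singly and with no list of such genes counted. With index series as a covariate Dnah5 did not pass (adjusted p = 0.0653), and Dnah5 and Ccdc114 passed on p in 9 and 10 of the 12 fits without 1 kidney. Daw1 was higher in PBS than in CD1 kidneys by 3.77 while Dnah5 and Ccdc114 stood at −0.56 and −0.49 there.

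Hapln1, a link protein of hyaluronan matrix, was 0.199 to 0.430 CPM in the high set and 0.792 to 1.32 CPM in the low set, with 2.70 to 6.53 CPM in CD1 kidneys (−1.71, adjusted p = 0.00112). Alas1, the first enzyme of heme synthesis, read 91.9 to 153 CPM against 147 to 348 CPM (−0.91, adjusted p = 0.0134), did not pass with index series as a covariate (adjusted p = 0.0540), differed by −0.28, −1.04 and −0.69 within index series 1, 2 and 3, and had a difference of −0.02 in the PBS split. Fgg, the fibrinogen gamma chain, read 10.1 to 37.7 CPM against 10.5 to 14.7 CPM (1.01, adjusted p = 0.0177), and 0.15 in the PBS split. The other 11 liver genes were not called higher. The 6 urothelium genes, uroplakins and a basal keratin, had differences of 0.32 to 0.80. Immediate early genes gave 0 calls of 9, near the 3.71% of all genes, with a median of 0.15. Of adipose, adrenal, red cell and skeletal muscle markers, 6, 1, 1 and 1 had enough counts to test, and 0 were called.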
